A study of Homo sapiens with 23 samples.

Results

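The loci described here are 8 genes of the intestinal epithelium: CDX1, CDX2, ELF3, KRT8, KRT18, EPCAM, CDH1 and LGR5. Each was examined in a colon carcinoma line, HCT116, and in a chronic myelogenous leukemia line, K562. Every peak that overlapped a gene's hg19 span, extended by 10 kb on each side, was taken. KRT8 and KRT18 lie side by side and share 1 span, so the 8 genes make 7 windows of 488.4 kb in all. The windows held 500 of the 1743298 peaks in the 21 lists. By GRCh38 gene positions, the flanks also reach other coding genes. These are SLC6A7 at CDX1, URAD at CDX2, RNPEP at ELF3, and CDH3 and TANGO6 at CDH1. A peak in a flank may therefore lie in a neighbouring gene. The genes were taken by name, with earlier results of these data known.

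CDX1 and CDX2 are homeobox transcription factors that set intestinal identity, and ELF3 is an ETS-family factor of epithelia. KRT8 and KRT18 pair to form the intermediate filaments of simple epithelia. EPCAM and CDH1 (E-cadherin) are cell adhesion proteins of epithelial cells, and LGR5 is an R-spondin receptor that marks stem cells of the intestinal crypt. In mammalian genomes, replication starts tend to be denser in open chromatin, near active genes, and their places differ between cell types. Gene expression was not measured, so the label "colon epithelial" could not be checked against RNA in either line.

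Replication start sites were located from nascent strands, the short new DNA that is protected from λ-exonuclease by its RNA primer. In HCT116, they came from a clone depleted of SIRT1, from that clone with wild-type SIRT1 put back (wild-type rescue) and from that clone with SIRT1 carrying the T530A substitution put back (T530A rescue). A further HCT116 list came from wild-type cells that spent 24 h in 200 nM aphidicolin, which blocks replicative DNA polymerases, and were then grown for 24 h without it. The 3 K562 lists came from cells sorted by elutriation into early, middle and late S phase. Chromatin immunoprecipitation (ChIP) was directed at 3 targets: pSIRT1, which is SIRT1 with phosphate on T530; pMCM2, which is MCM2 with phosphate on S139; and H4K16ac, the acetyl mark on lysine 16 of histone H4. SIRT1 is a deacetylase, MCM2 is a subunit of the replicative helicase, and H4K16ac is a mark of open chromatin. The HCT116 ChIP lists came from untreated, unsynchronised wild-type cells. In K562, pSIRT1 and pMCM2 were mapped in 5 fractions, those of G1, of early, middle and late S and of G2, and pSIRT1 also in unfractionated cells. No nascent-strand list of untreated wild-type HCT116 cells was analysed here, and each depleted or rescued line is 1 clone.

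Each list is 1 library, so no spread between replicates exists and no p-value is given. The lists held between 24416 and 230956 peaks, and the depth of the libraries is unknown. HCT116 start-site peaks covered 10.65 to 13.0% of the genome and K562 start-site peaks 6.003 to 6.59%. Higher coverage in HCT116 is therefore the rule across the genome. For start sites, each window is set beside the 500 kb on either side of it. EPCAM, CDH1, LGR5 and the pooled windows are also set beside the genome figure of each list. Values per peak are the authors' own, not scaled between libraries: numbers taken as read counts in 18 lists and scores in 3 (HCT116 H4K16ac and K562 pSIRT1 of middle S and of G2). A difference between the lines also includes the difference between unsynchronised HCT116 cells and S-phase fractions of K562, and these cannot be told apart.

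CDX2 and ELF3 were the windows without a start-site peak in any of the 3 K562 lists, while peaks of HCT116 lists lay over their gene starts. Their promoters are shown for that reason. Of the 8 genes, 3 had a promoter in the RefSeq table (CDX2, ELF3 and KRT8), and CDX1, KRT18, EPCAM, CDH1 and LGR5 did not. The KRT8 entry is not shown because the joint span gave no KRT8 start. The sequences are the 250 bases before the RefSeq start in GRCh38.p14, 5′ to 3′ on the strand of the gene. Capitals mark a TATA box (TATAAA) or a CCAAT box, which reads ATTGG where it lies on the opposite strand. The CDX2 sequence lies at chr13:27969316-27969565 on the minus strand and the ELF3 sequence at chr1:202010337-202010586 on the plus strand.
CDX2: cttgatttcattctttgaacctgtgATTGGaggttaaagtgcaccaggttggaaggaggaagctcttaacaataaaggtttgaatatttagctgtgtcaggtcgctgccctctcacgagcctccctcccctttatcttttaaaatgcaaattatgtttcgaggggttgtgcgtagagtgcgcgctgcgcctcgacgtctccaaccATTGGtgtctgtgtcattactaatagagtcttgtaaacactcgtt
ELF3: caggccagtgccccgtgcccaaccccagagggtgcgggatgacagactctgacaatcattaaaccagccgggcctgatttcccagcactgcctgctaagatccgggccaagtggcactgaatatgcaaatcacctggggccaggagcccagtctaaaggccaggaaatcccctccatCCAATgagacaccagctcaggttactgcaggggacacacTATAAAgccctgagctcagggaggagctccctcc

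The CDX2 promoter held 2 CCAAT boxes on the opposite strand, beginning 225 and 45 bases before the start, and no TATA box. Its GC content was 45.2% and it held 10 CpG dinucleotides. The ELF3 promoter held a TATA box beginning 34 bases before the start and a CCAAT box beginning 73 bases before it, with 58.4% GC and 4 CpG. Over all 35116 promoters of the same length, 10.72% held a TATA box and 32.01% a CCAAT box on either strand, and the medians were 58% GC and 11 CpG. A match describes the letters and is not evidence of a bound site. Because these positions are in GRCh38 and the peaks are in hg19, no peak was placed on the sequences.

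Start-site peaks spread over most of CDX1 in HCT116 and were nearly absent from it in K562. The CDX1 window (chr5:149536344-149574121, hg19, 37.78 kb) was 85.2% covered in the wild-type rescue, 79.0% in depleted cells, 47.1% in the T530A rescue and 61.7% after aphidicolin. In K562 it was 7.94% covered in early S and 0% in middle and late S. All 4 HCT116 values lay above all 3 K562 values. The HCT116 values also exceeded those of the 500 kb sides, which were 38.6, 42.2, 35.4 and 30.9% in the same order, whereas the K562 early S value was close to its sides, 7.59%.

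The widest HCT116 start-site peak at CDX1 was that of the wild-type rescue, 22.8 kb with 886 reads, from 10.5 kb before the gene start to 12.3 kb after it. In depleted cells the peak over the start was 11 kb wide with 684 reads, and in the T530A rescue 4.0 kb wide with 235 reads. After aphidicolin no peak lay over the start: 1 peak of 185 reads ended 144 bp before it and another of 403 reads began 0.657 kb after it. The single K562 peak, in early S, had 133 reads and also ended 144 bp before the start. Inside the gene, a run of 6.8 kb (chr5:149547201-149554000) and a run of 3.4 kb (chr5:149560201-149563600) were covered in all 4 HCT116 start-site lists and in no K562 one. With shorter runs, such bases came to 12.2 kb, or 32.3% of the window. K562 pSIRT1 of late S had regions over parts of the first run, with 50 and 110 reads, and over all of the second, with 312. Other K562 ChIP lists also had regions over both runs, among them pMCM2 of middle S with 44 and 86 reads.

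At CDX1, pSIRT1 regions of the K562 G1 and late S fractions did not set the lines apart as the start sites did, whereas those of unfractionated cells did. The window was 67.8% covered by pSIRT1, 91.96% by H4K16ac and 20.4% by pMCM2 in HCT116. In K562, pSIRT1 covered 25.9% in unfractionated cells, 73.6% in G1 and 10.1% in G2, and within S phase 0.53% (early), 36.3% (middle) and 63.7% (late). The K562 late S and G1 lists thus covered a share of CDX1 near that of HCT116 pSIRT1, in a line where start-site peaks were nearly absent. The unfractionated pSIRT1 lists differed: 67.8% in HCT116 stood against sides of 39.8%, and 25.9% in K562 against sides of 25.1%. K562 pMCM2 covered between 4.24% in G1 and 26.5% in middle S. Set against the 500 kb sides, HCT116 pMCM2 covered 0.83 times as much. The K562 pMCM2 ratio was lower in G1 (0.54) and higher in the other fractions, from 1.46 (G2) to 2.88 (middle). For pSIRT1 this ratio was 1.70 in HCT116. In the K562 fractions it was 3.37 (middle), 2.81 (G1), 2.65 (G2), 1.81 (late) and 0.25 (early). A stretch of 400 bp at chr5:149543201-149543600, about 3 kb before the start, was covered by 14 of the 21 lists, 7 of them from each line.

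At CDX2 the start-site peaks of HCT116 were set in a region where such peaks were otherwise sparse. The window (chr13:28526205-28553505, 27.3 kb) was 53.5% covered in the wild-type rescue, 56.1% in depleted cells, 38.5% in the T530A rescue and 31.2% after aphidicolin, against sides of 13.1, 9.67, 10.5 and 8.03%. All 3 K562 lists had 0% in the window, with sides of 1.84 to 2.78%. The HCT116 windows were 3.65 to 5.80 times as covered as their sides, which was a higher ratio in each of these 4 lists than at any of the other windows. In middle and late S the nearest K562 peaks lay 12.1 and 11.9 kb before the CDX2 start, just outside the window. They had 64 and 51 reads, and the nearest early S peak was 43.5 kb away.

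A single 14.6 kb peak with 501 reads ran over CDX2 in the wild-type rescue, from 8.50 kb before the start to 6.10 kb after it. Depleted cells had 5 peaks there and the T530A rescue 2, with 280 and 203 reads in the peak over the start. After aphidicolin the start was bare, and the nearest of 2 peaks ended 4.70 kb before it with 206 reads. The longest stretch covered in all 4 HCT116 lists and in no K562 start-site list was 2.4 kb (chr13:28549601-28552000), between 6.10 and 8.50 kb upstream of the gene. HCT116 pSIRT1 and H4K16ac had regions over part of the same stretch, with 52 reads and a score of 99, and so did K562 pSIRT1 of late S, with 67 reads.

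HCT116 ChIP regions flanked the CDX2 start without covering it: the nearest pSIRT1 region ended 96 bp before it, the nearest H4K16ac region 1.06 kb before it and the nearest pMCM2 region 1.70 kb before it. H4K16ac covered 52.6% of the window, pSIRT1 32.2% and pMCM2 6.59%. K562 pSIRT1 covered 1.46% in unfractionated cells, 5.13% in G1, 19.0% in late S and 0% in early S, middle S and G2. K562 pMCM2 covered 3.66% in late S, 5.86% in G2 and 0% in the other 3 fractions. CDX2 was thus covered less by every K562 ChIP list than by HCT116 pSIRT1 or H4K16ac. Relative to the 500 kb sides the order differed. HCT116 pSIRT1 covered 4.30 times as much as its sides, H4K16ac 3.99 times and pMCM2 1.21 times. K562 pSIRT1 covered 4.67 times as much in late S, 2.42 in G1 and 0.99 in unfractionated cells. K562 pMCM2 covered 2.13 times as much in late S and 2.12 in G2. The only peak of any K562 list over the CDX2 start was a pMCM2 region of late S, 0.8 kb with 11 reads.

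ELF3 differed among the HCT116 lists as well as between the lines. The window (chr1:201969690-201996316, 26.63 kb) was 42.1% covered by start-site peaks in the wild-type rescue, 30.04% in depleted cells, 0% in the T530A rescue and 28.2% after aphidicolin. The 3 K562 lists had 0%. The sides were well covered in every list, 25.3 to 30.3% in HCT116 and 9.33 to 15.1% in K562, so the gap in the T530A rescue and in K562 lay within a region that otherwise held start sites. The nearest T530A peak was 15.9 kb before the gene with 81 reads. The nearest K562 peaks were 15.9, 13.1 and 16.1 kb before it, with 161, 301 and 151 reads in early, middle and late S. All of these lay outside the window on the same side.

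Over the ELF3 start lay a 10.6 kb peak of 423 reads in the wild-type rescue and a 6.4 kb peak of 298 reads in depleted cells. The aphidicolin peak of 207 reads began 4.11 kb after the start and ran past the end of the gene. In ChIP, HCT116 pSIRT1 covered 48.8% of the window, H4K16ac 51.8% and pMCM2 28.2%. K562 pSIRT1 covered 59.0% in late S, 32.7% in unfractionated cells and 29.3% in G1, and between 4.51 and 6.76% in early S, middle S and G2. The late S region spanned 10.8 kb with 469 reads and ran over the whole gene. ELF3 was therefore bare of K562 start-site peaks and at the same time more covered by K562 pSIRT1 of late S than by HCT116 pSIRT1. At chr1:201988001-201988400, beyond the end of ELF3, 14 of 21 lists had a peak, 5 from HCT116 and 9 from K562, the latter all ChIP lists.

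**Figure D1:**
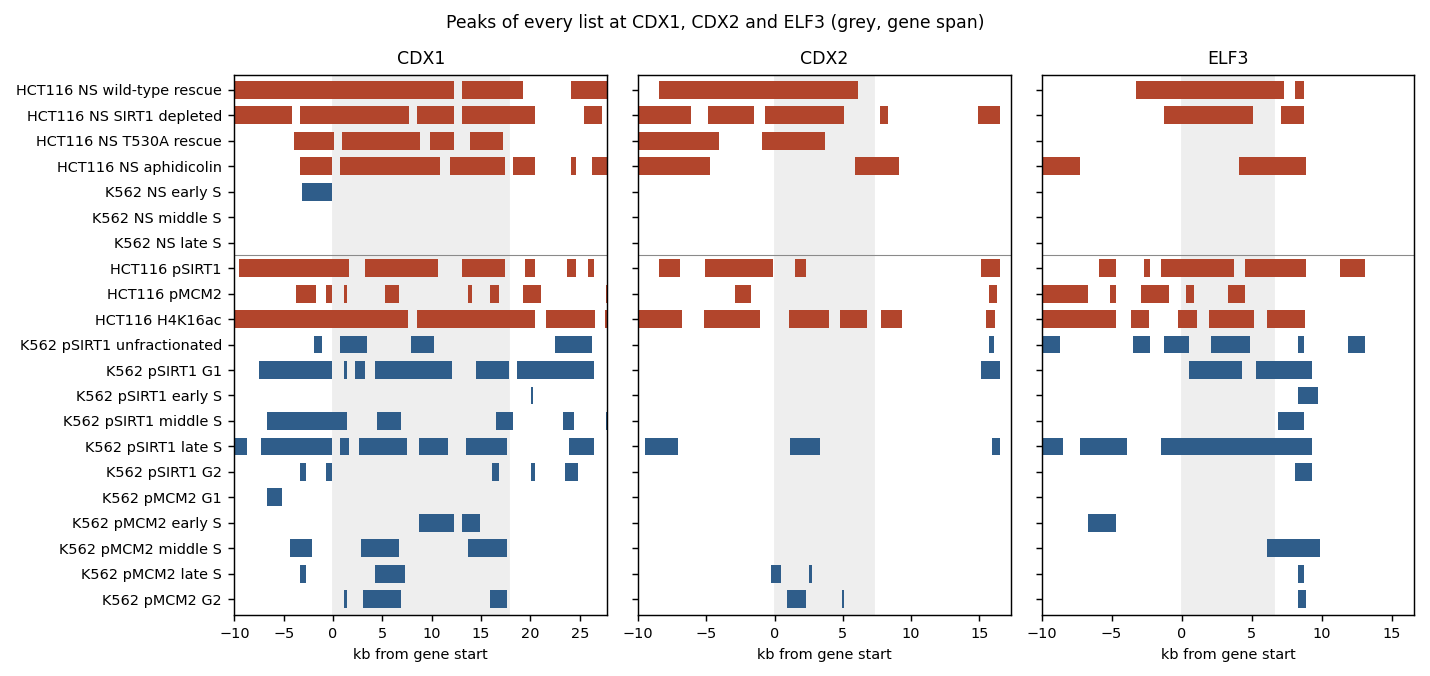
Peaks of all 21 lists (bars; red HCT116, blue K562; NS, nascent strands) at CDX1, CDX2 and ELF3, with distance from the gene start in kb on the horizontal axis and the gene span in grey. The 3 K562 start-site lists hold 1 peak in the 3 windows, just before CDX1, and the line across each panel separates start-site from ChIP lists.

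The keratin pair had start-site peaks in every HCT116 list, yet fewer than its surroundings. The joint KRT8-KRT18 window (chr12:53280971-53356685, 75.72 kb) was 26.2% covered in the wild-type rescue, 38.1% in depleted cells, 16.6% in the T530A rescue and 27.3% after aphidicolin. The sides were 44.0, 44.6, 36.5 and 39.4% covered, which are higher values in all 4 lists. In K562 the window was 7.92% covered in early S, 1.59% in middle S and 0% in late S, also below the sides of 9.05, 8.83 and 5.31%. KRT8 and KRT18 have many processed pseudogenes, and how the authors placed reads that match several copies is not given in the sources used here, so peaks within their exons are uncertain.

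All 4 HCT116 start-site lists shared a 4.0 kb stretch at chr12:53336601-53340600 that no K562 start-site list covered. The peaks around it had 419, 310, 210 and 265 reads in the wild-type rescue, depleted cells, T530A rescue and after aphidicolin. The left part of that stretch, 1.4 kb long, was covered by 13 of 21 lists: all 7 of HCT116, and K562 pSIRT1 of unfractionated cells, G1 and late S with pMCM2 of early S, late S and G2. A K562 early S peak of 5.2 kb and 209 reads (chr12:53319401-53324600) overlapped peaks of all 4 HCT116 lists. At KRT8-KRT18, HCT116 pSIRT1 covered 42.0%, pMCM2 28.3% and H4K16ac 45.7% of the window. K562 pSIRT1 covered 38.6% in unfractionated cells, 32.8% in G1, 39.7% in late S, 8.45% in middle S, 2.91% in G2 and 0.53% in early S. All 6 values were below that of HCT116 pSIRT1, the first and the late S value by under 4 percentage points. Relative to the 500 kb sides the order differed. HCT116 pSIRT1 covered 1.034 times as much as its sides. K562 pSIRT1 covered 1.485 times as much in unfractionated cells, 1.341 in G1 and 1.07 in late S. The early S, middle S and G2 lists were below their sides. K562 pMCM2 covered 0 to 15.6%.

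EPCAM showed the opposite order of the lines. Its window (chr2:47586287-47624167, 37.88 kb) was 11.1% covered by start-site peaks in the wild-type rescue, 4.22% in the T530A rescue and 0% in depleted cells and after aphidicolin. In K562 it was 8.98% covered in early S, 22.2% in middle S and 8.45% in late S. In percent covered the ranges of the lines overlap, since the wild-type rescue lies among the K562 values. Relative to the genome figure of each list they did not. The ratio was 0.88 in the wild-type rescue, 0.36 in the T530A rescue and 0 in depleted cells and after aphidicolin. In K562 it was 1.495, 3.605 and 1.28 in early, middle and late S. The HCT116 sides were 18.1 to 25.7% covered, so in HCT116 the EPCAM window was the less covered one in all 4 lists, while each K562 list exceeded its sides of 7.20 to 8.97%.

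The HCT116 peaks at EPCAM were 1 of 157 reads upstream of the gene and 1 of 57 reads inside it. No HCT116 start-site peak lay over the gene start. K562 peaks lay past the end of the gene in all 3 fractions, with 128, 191 and 44 reads, and shared 1.0 kb (chr2:47616401-47617400) that no HCT116 start-site list covered. A late S peak of 94 reads ended 87 bp before the EPCAM start. ChIP regions were sparse: in HCT116, pSIRT1 covered 4.22%, pMCM2 5.28% and H4K16ac 12.0%, against sides of 20.5, 11.9 and 30.7%. Of the 11 K562 ChIP lists, 7 had no peak at EPCAM and the highest value was 9.50%, for pSIRT1 in late S. A H4K16ac region of 0.62 kb was the single peak of any list over the EPCAM start.

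CDH1 had scattered start-site peaks in HCT116 and few in K562. The window (chr16:68761195-68879444, 118.2 kb) was 23.2% covered in the wild-type rescue, 8.96% in depleted cells, 9.47% in the T530A rescue and 9.64% after aphidicolin. In K562 it was 4.57, 3.72 and 0.68% covered in early, middle and late S. All HCT116 values were above all K562 values, but depleted cells, the T530A rescue and the aphidicolin list were below their sides (18.0, 15.1 and 12.7%), as were all 3 K562 lists (5.42 to 7.90%). The wild-type rescue was above its sides of 20.2%. Relative to the genome figure of each list, the ranges of the lines overlapped. The ratio was 1.84 in the wild-type rescue, 0.69 in depleted cells, 0.82 in the T530A rescue and 0.91 after aphidicolin. In K562 it was 0.76, 0.60 and 0.10 in early, middle and late S. The wild-type rescue had 8 peaks in the window and the other HCT116 lists 3 to 5.

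The CDH1 start was covered by start-site peaks of the wild-type rescue (1.0 kb, 52 reads) and the T530A rescue (1.6 kb, 93 reads). A peak of depleted cells began 406 bp after it with 37 reads. In K562 the nearest peaks lay 60.8 to 90.2 kb into the gene. A stretch of 2.4 kb within the gene (chr16:68813001-68815400), from 41.8 kb after the start, was covered in all 4 HCT116 start-site lists, with 174, 168, 142 and 132 reads in the peaks around it, and in no K562 start-site list. HCT116 pSIRT1 (145 reads) and H4K16ac (score 102) had regions there, and so did K562 pSIRT1 of late S (56 reads) and K562 pMCM2 of G2 (92 reads). Over the window, HCT116 pSIRT1 covered 15.2%, pMCM2 14.9% and H4K16ac 23.4%, and K562 pSIRT1 covered 24.0% in late S, 7.78% in G1, 7.44% in unfractionated cells, 1.35% in G2 and 0% in early and middle S. K562 pMCM2 covered 2.03 to 8.63%.

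LGR5 was the locus at which the lines differed least in the mean percent covered by start-site peaks, 8.52% in HCT116 and 9.35% in K562. Its window (chr12:71823813-71988622, 164.8 kb) was 8.98% covered in the wild-type rescue, 10.6% in depleted cells, 3.40% in the T530A rescue and 11.2% after aphidicolin, and 8.13, 10.4 and 9.46% in K562 early, middle and late S. The ranges overlap. HCT116 values were below the genome figure of their list except after aphidicolin (11.2 against 10.65%), and all 3 K562 values were above theirs. As ratios to that figure the ranges did not overlap, with K562 higher. The ratios were 0.71, 0.81, 0.29 and 1.05 in HCT116 and 1.35, 1.70 and 1.44 in K562, in the order above. The sides were 5.64, 3.56, 4.98 and 7.68% covered in HCT116 and 7.26, 9.04 and 12.6% in K562. HCT116 lists had 5 to 9 peaks and K562 lists 7 to 10. ChIP regions were few: HCT116 pSIRT1 covered 1.58%, pMCM2 3.52% and H4K16ac 4.38% of LGR5, and 4 of the 6 K562 pSIRT1 lists had no region there. K562 pSIRT1 of late S covered 4.25% and K562 pMCM2 of G2 4.85%, both above the HCT116 values for the same protein.

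Several short peaks of LGR5 recurred at the same place in both lines. Peaks of 8 lists began at the same position, chr12:71873201, 39.4 kb into the gene, 3 from HCT116 and 5 from K562. The 400 bp from chr12:71873401 to chr12:71873800 was covered in 11 lists, among them all 3 K562 start-site lists with 43 to 59 reads. In HCT116 the start-site peaks there had 51 reads in depleted cells, 106 in the T530A rescue and 42 after aphidicolin, and the wild-type rescue had none. The largest CDX1 peak had 886 reads, but it was 22.8 kb wide and these start-site peaks were 0.6 to 2 kb wide. Counts per peak are therefore not a like measure of strength, nor are they scaled between libraries. They were singled out after their positions were seen.

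**Figure D2:**
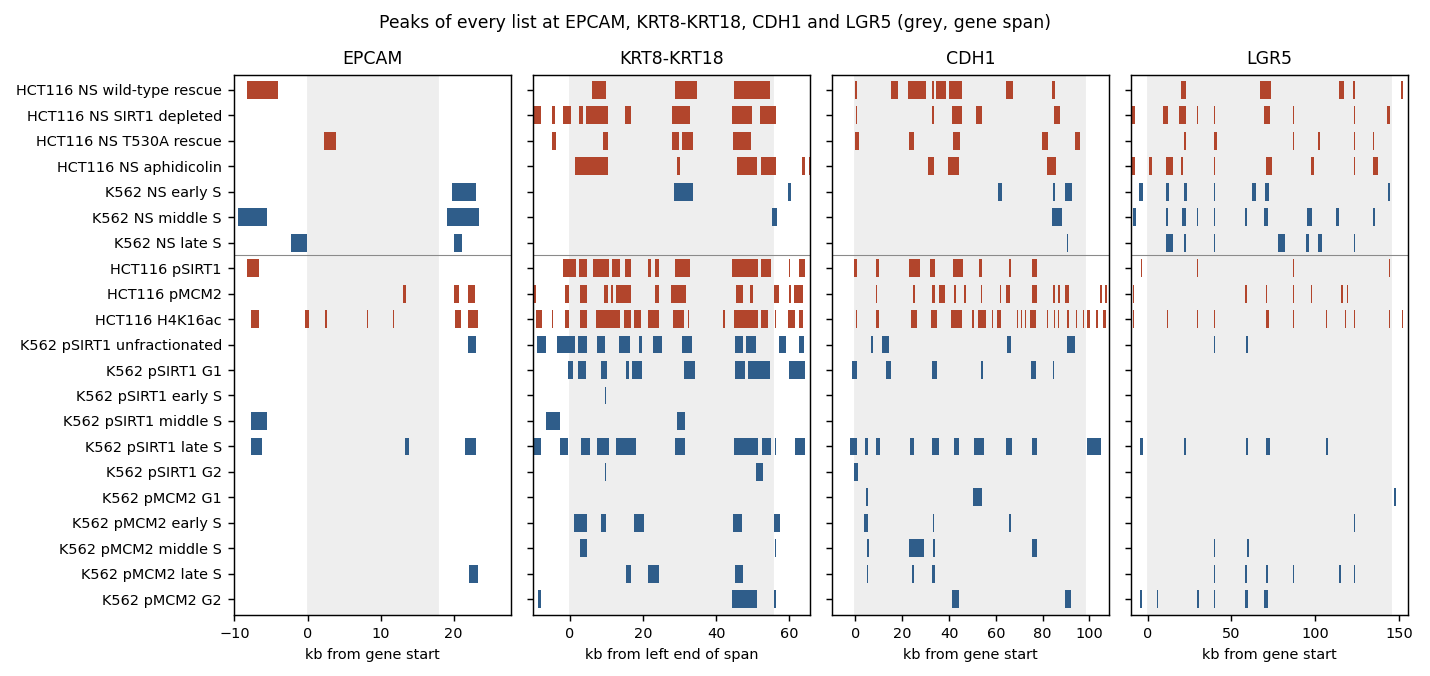
Peaks of all 21 lists (bars; red HCT116, blue K562; NS, nascent strands) at EPCAM, KRT8-KRT18, CDH1 and LGR5, with distance in kb from the gene start, or from the left end of the joint keratin span, on the horizontal axis and the span in grey. Start-site peaks of K562 lie past the end of EPCAM in all 3 lists, and LGR5 has 5 to 10 short start-site peaks in each of the 7 start-site lists.

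**Figure D3:**
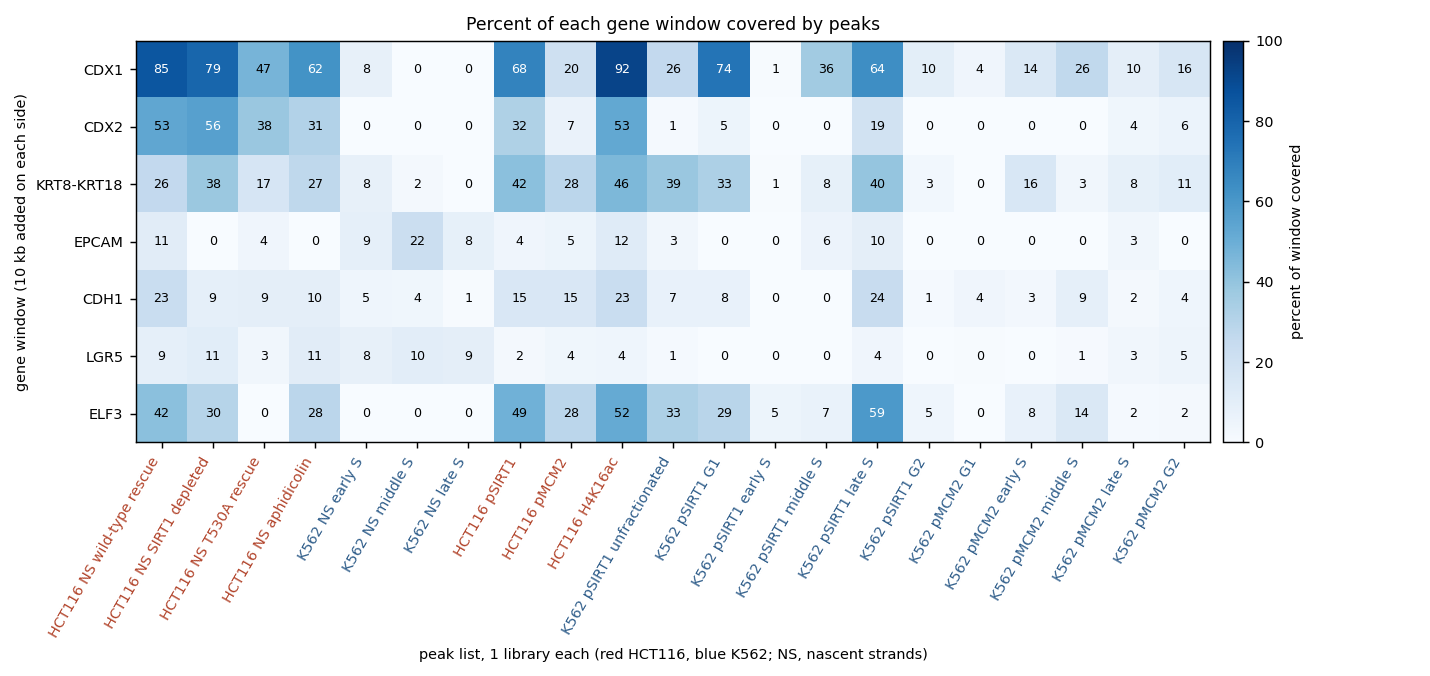
Percent of each gene window (vertical axis) covered by the peaks of each list (horizontal axis; red HCT116, blue K562; NS, nascent strands), given as rounded numbers and by shade from 0 to 100%. CDX1 has 47.1 to 85.2% in the HCT116 start-site lists and 0 to 7.94% in the K562 ones, while its pSIRT1 coverage in K562 reaches 73.6% in G1.

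Across the 6 genes with a defined start (all but the keratins), start-site peaks lay over the gene start in HCT116 at CDX1 and CDX2 in 3 of 4 lists each, at CDH1 and ELF3 in 2 each, and at EPCAM and LGR5 in none. For scale, these lists cover 10.65 to 13.0% of the genome in HCT116 and 6.003 to 6.59% in K562, and the share over all gene starts was not computed. In K562 no start-site peak lay over any of the 6 starts, although an early S peak ended 144 bp before CDX1 and a late S peak 87 bp before EPCAM. Both gaps are shorter than the 200 bp grid of the start-site peaks. The aphidicolin list covered none of the 6 starts either, although its peaks ended 144 bp before CDX1 and began 988 bp after LGR5. HCT116 pSIRT1 lay over the starts of CDX1, CDH1 and ELF3, H4K16ac over those of CDX1, EPCAM and ELF3, and HCT116 pMCM2 over none. K562 pSIRT1 lay over CDX1 in middle S, over CDH1 in G1, late S and G2, and over ELF3 in late S and in unfractionated cells. K562 pMCM2 lay over CDX2 in late S alone. In HCT116, pSIRT1 covered 9.48% of the genome, H4K16ac 13.0% and pMCM2 6.35%. The K562 pSIRT1 lists covered from 0.78% of it in early S to 8.72% in late S. The share over all gene starts was not computed for ChIP lists either, so these counts are not comparable between lists.

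Pooled over the 7 windows, start-site coverage in HCT116 was 25.4% in the wild-type rescue, 22.5% in depleted cells, 12.1% in the T530A rescue and 18.4% after aphidicolin. In K562 it was 6.39, 6.39 and 4.01% in early, middle and late S. The T530A rescue was close to its genome figure of 11.6% and below its sides of 22.1%, while the other HCT116 lists were 1.73 to 2.02 times their genome figure and near their sides (20.3 to 24.7%). Peaks were wider in the wild-type rescue, with 23 peaks covering 124.2 kb against 23 peaks covering 59.3 kb in the T530A rescue. Its peaks were also fewer and wider across the genome, 74481 covering 12.6% against 103976 covering 11.6%. The LGR5 window is 164.8 of the 488.4 kb. Without it the mean over HCT116 lists was 25.3% in place of 19.6%, and that over K562 lists 3.69% in place of 5.60%.

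**Figure D4:**
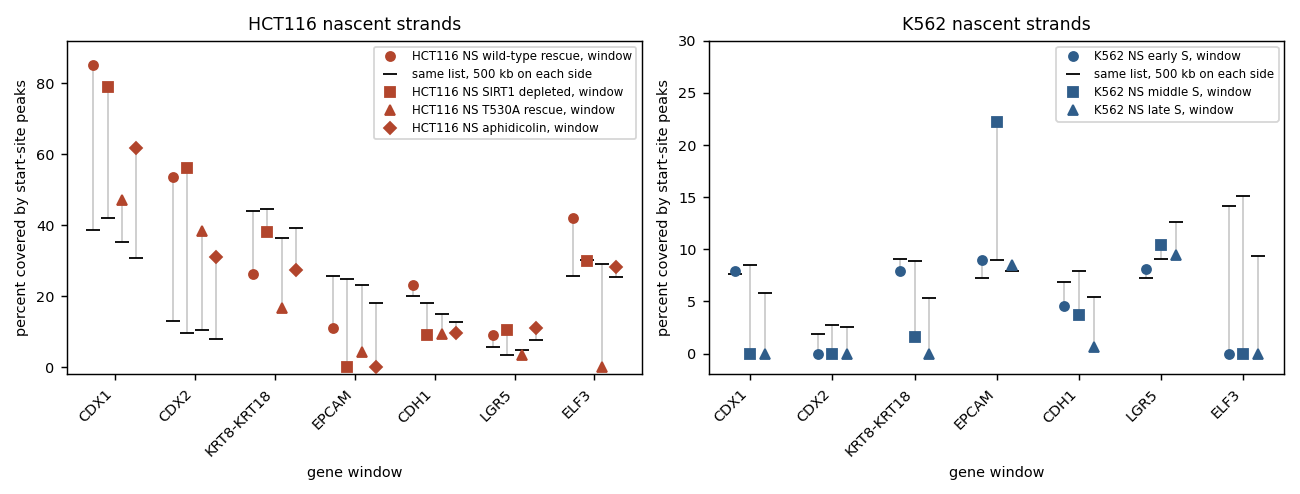
Percent covered by start-site peaks in each gene window (points, 1 per list) and in the 500 kb on each side of it in the same list (black dashes, joined by a grey line), for HCT116 (left) and K562 (right, with a shorter vertical axis). In HCT116, CDX1 and CDX2 lie above their sides in all 4 lists and KRT8-KRT18 and EPCAM below them, and in K562 only EPCAM lies above its sides in all 3 lists.

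To set the lines side by side at 1 scale, the windows were divided into 489 tiles of 1 kb. An HCT116 tile had a start-site peak in at least 3 of the 4 HCT116 lists and in no K562 list. A K562 tile had one in at least 2 of the 3 K562 lists and in no HCT116 list, and a shared tile met both minimums. The windows held 61 HCT116 tiles, 12.5% (95% exact binomial interval 9.68 to 15.7%), against 5.51% of all 2951295 tiles of the genome and 14.7% of the sides. They held 9 K562 tiles, 1.84% (0.85 to 3.46%), against 1.9% of the genome and 2.36% of the sides, and 6 shared tiles, 1.23% (0.45 to 2.65%), against 2.29% of the genome and 2.96% of the sides. The share of HCT116 tiles was thus above the genome's and near that of the sides, and the share of K562 tiles was near the genome's. Neighbouring tiles share peaks, so the intervals are too narrow.

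The HCT116 tiles were unevenly divided among the genes. CDX1 held 22 of its 38 tiles (57.9%, sides 26.4%) and CDX2 13 of 28 (46.4%, sides 5.40%). KRT8-KRT18 held 14 of 76 (18.4%, sides 32.7%), CDH1 7 of 118 (5.93%, sides 9.3%) and ELF3 5 of 26 (19.2%, sides 16.5%). EPCAM (sides 12.1%) and LGR5 (sides 0.2%) held none. KRT8-KRT18, CDH1 and EPCAM were thus below their sides. The 9 K562 tiles lay at EPCAM (4, 10.5%, sides 1.5%), LGR5 (3, 1.82%, sides 4.5%) and CDH1 (2, 1.69%, sides 1.9%). Of the 6 shared tiles, 5 lay at LGR5 and 1 at CDH1. Without LGR5 the shared tiles were therefore 0.31% (genome 2.29%) and the HCT116 tiles 18.8% (genome 5.51%). Requiring all lists of a line left 5.93% as HCT116 tiles (genome 2.43%), leaving out the aphidicolin list 7.98% (genome 3.65%), and 5 kb tiles gave 19.2% (genome 8.18%).

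For pSIRT1, the unfractionated lists of both lines were compared in the same tiles. The windows held 78 tiles with a peak in HCT116 alone, 15.95% (12.8 to 19.5%), against 7.74% of the genome and 14.9% of the sides. In K562 alone there were 32, 6.54% (4.52 to 9.11%), against 4.59% of the genome and 6.81% of the sides. Both lines had a peak in 53 tiles, 10.8% (8.22 to 13.9%), against 5.05% of the genome and 14.6% of the sides. The share of tiles with pSIRT1 in both lines was thus above the genome's and below that of the sides. With at least 50% of a tile covered, shared pSIRT1 tiles were 6.54% (genome 3.23%). With the higher-scoring 50% of peaks they were 5.73% (genome 3.155%) and with 5 kb tiles 29.3% (genome 12.03%).

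**Figure D5:**
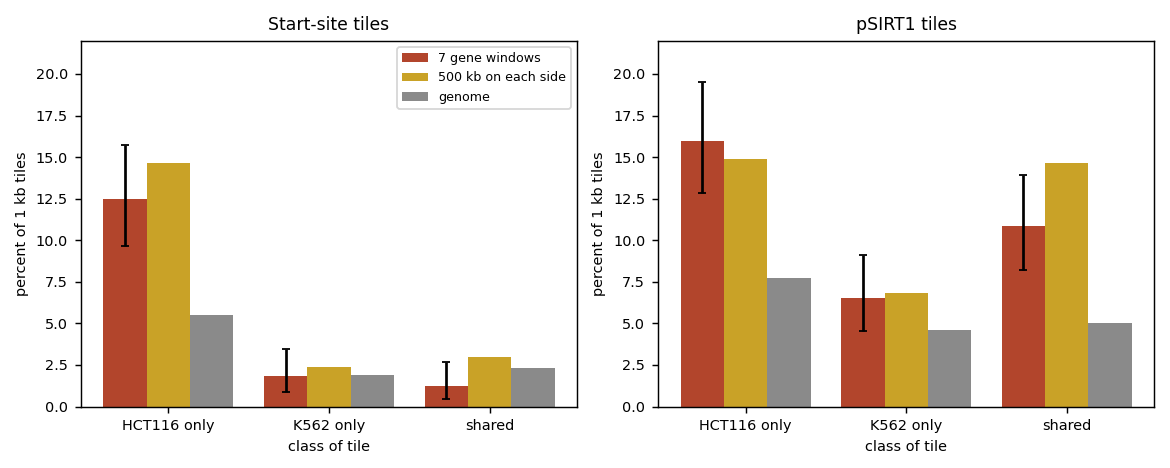
Percent of 1 kb tiles in each class for start sites (left) and pSIRT1 (right), in the 7 gene windows (red, with 95% exact binomial intervals), in the 500 kb sides (yellow) and in the genome (grey). HCT116 tiles make up 12.5% of the windows for start sites, above the genome's 5.51% and near the 14.7% of the sides.

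A larger part of the HCT116 start sites lay within pSIRT1 and H4K16ac regions at these loci than across the genome, and so did a larger part of the sequence as a whole. HCT116 pSIRT1 covered 20.75% of the windows against 9.48% of the genome, H4K16ac 28.0 against 13.0% and pMCM2 13.1 against 6.35%. In the windows, HCT116 pSIRT1 covered 56.5% of start-site bases of the wild-type rescue, 61.9% of depleted cells, 58.6% of the T530A rescue and 50.2% after aphidicolin, against 38.5, 50.4, 42.2 and 38.9% genome-wide. H4K16ac covered 62.0, 74.3, 68.4 and 66.4%, against 46.2, 58.6, 50.4 and 47.1%. For pMCM2 the windows (21.6, 25.7, 22.9 and 24.6%) differed little from the genome (21.1, 25.6, 23.3 and 22.5%). The ChIP cells were untreated wild-type cells with normal SIRT1. The start-site lists came from depleted or rescued clones or from aphidicolin-treated cells, so for none of them were the marks measured in the same cells.

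In K562 the few start-site bases at these genes were not uniformly within pSIRT1 regions. Unfractionated pSIRT1 covered 24.4% of the early S start-site bases of the windows, 7.69% of middle S and 7.14% of late S, against 15.8, 19.1 and 15.1% genome-wide. Early S was above its genome figure, and middle and late S were below theirs. These shares rest on 31.2, 31.2 and 19.6 kb of start-site peaks, of which EPCAM and LGR5 gave most.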

How the data were processed

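Nascent strands and ChIP DNA were amplified with random primers and sequenced on a Genome Analyzer IIx, per the labels' protocols. The submitters' processing notes name hg19, MACS and SICER without versions. Per the labels, peaks were called against sheared genomic DNA from the matching line. No aligner, threshold or library depth is given in the sources used here. Units were inferred from the values. In 18 lists the authors deposited whole-number read counts per region, not scaled for depth. For K562 pSIRT1 in middle S and in G2 the authors deposited a decimal score instead. The deposited H4K16ac list has the MACS layout, with the authors' score, their fold enrichment and their p and q as −log10 values; of these the score alone was used. Overlapping peaks of a list were merged for coverage and counted as deposited.

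Coverage, distances and 1 kb tiles were computed with Python 3.11.15, numpy 2.4.6 and scipy 1.17.1. The tile code was tested on simulated data. All 8 genes were described, and the genes and lists were chosen with earlier results of these data known. Gene starts are the 5′ ends of the given spans, with the strand taken from general knowledge. Other colon and erythroid genes had been listed but, without hg19 positions, were not used here. Alternatives covered flanks, peak strength, overlap and tile size; the equal weighting of windows and the removal of LGR5 were chosen after seeing the data.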

Additional observations from a re-analysis of the deposited data

How the results depend on the processing

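Of 84 alternative values, 48 stayed within a 95% exact binomial interval of the value reported and 36 did not. That interval, taken over the tiles or the kb of window, is a tolerance and not a spread between replicates; no alternative changed which line was higher in mean start-site coverage. No flank, a 50 kb flank and the demand for 50% of a peak's length changed no value beyond it. For HCT116 start-site tiles (12.5%), 5 kb tiles gave 19.2%, a tile covered by at least 50% 9.61%, the higher-scoring 50% of peaks 9.41%, all lists of a line 5.93%, no aphidicolin list 7.98% and no LGR5 window 18.8%. The genome shares under the same settings were 8.18, 4.55, 4.40, 2.43, 3.65 and 5.51%, in that order. For pSIRT1 tiles of HCT116 (15.95%), removal of LGR5 gave 22.8% (genome 7.74%). K562 start-site tiles (1.84%) were 0.82% with the stronger peaks (genome 1.51%) and 0.41% with all lists (genome 0.54%). Shared start-site tiles (1.23%) were 5.05% with 5 kb tiles, 0% with the stronger peaks, 0% with all lists, 0.41% without aphidicolin and 0.31% without LGR5. The genome shares were 6.22, 1.205, 0.76, 1.52 and 2.29%, in that order. Shared pSIRT1 tiles (10.8%) were 29.3, 6.54, 5.73 and 16.05% with 5 kb tiles, 50% covered, stronger peaks and no LGR5. Here the genome shares were 12.03, 3.23, 3.155 and 5.045%. With the stronger peaks, mean start-site coverage was 15.0% (HCT116) and 3.47% (K562), HCT116 pSIRT1 16.3%, pMCM2 7.63% and H4K16ac 24.1%, unfractionated K562 pSIRT1 8.38% and the mean of its phase lists 6.63%. With equal weights, the HCT116 start sites had 27.2%, pSIRT1 30.2%, H4K16ac 40.3%, unfractionated K562 pSIRT1 15.8% and its phases 12.9%; without LGR5 these were 25.3, 30.5, 40.1, 18.0 and 13.2%, and HCT116 pMCM2 17.9%. The cause was not tested where it is not the smaller set of peaks, lists or windows. No paired analysis was possible because each group is 1 library and no test was made. Depth is unknown, so a window with no peak says only that none was called there.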

Other observations

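Region edges recurred at the same grid position in lists of both lines, a pattern singled out after the values were seen. At CDX1, regions of 6 lists ended 144 bp before the gene start, at chr5:149546200. They were the HCT116 aphidicolin start sites, HCT116 pMCM2, K562 early S start sites and K562 pSIRT1 of G1, late S and G2. At CDH1, regions of 5 lists ended 0.81 kb after the gene start, 3 from HCT116 and 2 from K562. At LGR5, regions of 5 lists ended 87.2 kb into the gene and regions of another 5 ended 123.6 kb into it. KRT8-KRT18 had a shared end of 5 lists at chr12:53295800 and another at chr12:53347400, and ELF3 had one at chr1:201988400. Shared edges outside these windows were not counted.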
